A study of Mus musculus with 12 samples.

Results

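The genes described here are 7 genes of red blood cells: the embryonic globins Hbb-y, Hbb-bh1 and Hba-x, and the erythroid genes Alas2, Slc4a1, Epb42 and Ahsp. They were picked by name, with their values over the arrays known, and every probe set that the platform annotation assigns to 1 of them alone was read, which gave 13 probe sets of 34945 single-gene probe sets. Hbb-y, Hbb-bh1 and Slc4a1 had 3 probe sets each, Epb42 had 2, Hba-x and Alas2 had 1 each, and Ahsp had none and is only named here. Of the 7 genes, 3 (Hbb-y, Alas2 and Slc4a1) passed the filters on low signal and were among the 9661 genes tested.

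RNA came from the cardiac ventricles of mouse embryos at embryonic day 16.5, on 12 single-colour arrays. Groups of 3 arrays stood for embryos lacking both Hdac2 and Hopx (double-null), embryos lacking Hdac2 (Hdac2-null), embryos lacking Hopx (Hopx-null) and wild-type embryos. The labels call the arrays of a group biological replicates, and give for the alleles only that they are knockouts, with no strain, Cre driver or litter. A ventricle of this stage holds blood in its cavities and vessels as well as heart muscle, and fewer red cells and less RNA per red cell cannot be told apart in such bulk RNA.

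Red cells arise in waves. The first, from the yolk sac, carries embryonic haemoglobin, built from the alpha-like chain of Hba-x and the beta-like chains of Hbb-y and Hbb-bh1, and later red cells from the fetal liver carry adult globins. Both kinds make haem through Alas2, the erythroid aminolevulinate synthase that starts the pathway, and hold the anion exchanger Slc4a1 in their membrane, where the skeleton protein Epb42 binds it, while Ahsp is the chaperone of free alpha globin.

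The promoters of these genes are the DNA on which erythroid factors act, so 3 of them are shown: Hbb-y, the embryonic globin with signal here, Hba-x, an embryonic globin near background, and Alas2, measured on nearly all arrays. They come from RefSeq on GRCm38.p6 and run from 250 bases before to 50 bases after the start. The set of promoter sequences used here held 4 of the 7 genes (Hbb-y, Hba-x, Alas2 and Epb42). Capitals mark matches, on either strand, to the GATA hexamer (spelled AGATAA, or with a final G as AGATAG, or with a leading T as TGATAA, or with both changes as TGATAG), to the box CACCC and to the box CCAAT.
Hbb-y, chr7:103853158-103853457, minus strand: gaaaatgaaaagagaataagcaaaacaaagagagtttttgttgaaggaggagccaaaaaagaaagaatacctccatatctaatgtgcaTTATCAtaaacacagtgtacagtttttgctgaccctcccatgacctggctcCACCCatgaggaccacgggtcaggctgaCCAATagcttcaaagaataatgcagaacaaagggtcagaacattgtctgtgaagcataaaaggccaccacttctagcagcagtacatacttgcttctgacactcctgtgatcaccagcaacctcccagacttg
Hba-x, chr11:32276350-32276649, plus strand: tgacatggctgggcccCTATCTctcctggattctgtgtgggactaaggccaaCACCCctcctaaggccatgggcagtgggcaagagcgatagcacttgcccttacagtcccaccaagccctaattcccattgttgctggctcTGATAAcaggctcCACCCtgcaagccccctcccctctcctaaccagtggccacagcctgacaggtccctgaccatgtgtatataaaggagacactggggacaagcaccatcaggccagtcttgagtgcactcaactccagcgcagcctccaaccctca
Alas2, chrX:150547167-150547466, plus strand: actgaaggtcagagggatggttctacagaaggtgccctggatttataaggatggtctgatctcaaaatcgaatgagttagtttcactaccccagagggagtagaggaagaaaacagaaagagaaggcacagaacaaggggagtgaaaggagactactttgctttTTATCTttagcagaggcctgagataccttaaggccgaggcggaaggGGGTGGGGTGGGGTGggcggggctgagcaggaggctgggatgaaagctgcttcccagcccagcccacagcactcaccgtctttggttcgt

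Counting back from the start, the Hbb-y window held a GATA hexamer at -162, a CACCC box at -111 and a CCAAT box at -83, with ATAAA at -28 on the strand shown (a second ATAAA, at -157, shares a base with the hexamer). The Hba-x window held 2 GATA hexamers, at -234 and -108, 2 CACCC boxes, at -198 and -95, and ATAAA at -27. The Alas2 window held 1 GATA hexamer at -86 and 3 CACCC boxes read on the other strand, at -40, -35 and -30. Such matches are common: of 32851 promoters of this length, 29.8% held a GATA hexamer, 57.5% a CACCC box, 37.4% a CCAAT box and 26.0% an ATAAA. A match is a run of letters and not a measured binding site.

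The signals are the intensities as deposited, on a linear scale, where 48.6% of all values lay within 1 unit of 4.5. A floor of 82.9 units was set under the signals before log2 transformation, and the share of probe sets above it was 37.5% to 37.9% on every array. Hdac2 and Hopx checked the labels: an Hdac2 probe set averaged 4.15 ± 0.148 units in double-null, 4.05 ± 0.00490 in Hdac2-null, 4903 ± 679 in Hopx-null and 4839 ± 314 in wild-type ventricles (SD, n = 3 each). A Hopx probe set averaged 9.71 ± 0.0111 units in double-null, 1358 ± 179 in Hdac2-null, 11.9 ± 1.94 in Hopx-null and 787 ± 322 in wild-type ventricles, while a second Hopx probe set kept 1700 ± 38.6 and 1992 ± 111 units in double-null and Hopx-null ventricles, against 9817 ± 2082 units in wild type. All 12 ventricular muscle markers were above the floor on all arrays. Xist was high on replicate 1 of each group and on wild-type replicate 2, 5 arrays in all.

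1 array stood apart for liver genes. Hdac2-null replicate 3 had 176 units of Alb and 205 units of Afp, the main secreted proteins of fetal hepatocytes, where no other array passed 4.59 units of Alb. Afp was 33.0 units on Hdac2-null replicate 2 and at most 5.02 units on the remaining arrays. Of 10 hepatocyte markers measured, 3 passed the floor on any array. The main differences that rest on the Hdac2-null group are therefore given with and without that array.

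Hbb-y was the one embryonic globin with signal above the floor, and no gene of the group varied as much. Its brightest probe set read 47.4, 16.2 and 64.7 units in double-null, 1209, 985 and 219 units in Hdac2-null, 427, 4.89 and 5.69 units in Hopx-null and 7.66, 4.84 and 123 units in wild-type ventricles. All 3 Hdac2-null arrays lay above every wild-type and every double-null array, and 5 arrays in all passed the floor: those 3, Hopx-null replicate 1 and wild-type replicate 3. The group means were 42.8 ± 24.5, 804 ± 519, 146 ± 243 and 45.1 ± 67.2 units (SD, n = 3 each), so that in the Hopx-null and wild-type groups the SD exceeded the mean. Between the lowest and the highest of the 12 arrays the signal differed 249-fold, but the lowest, 4.84 units, was near background. The size of that ratio therefore rests on signals under the floor, where 7 of the 12 arrays lay. After the floor the same probe set spanned 6.37 to 10.2 log2 units.

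A second Hbb-y probe set gave the same picture, with 48.4, 14.8 and 35.5 units in double-null, 956, 829 and 189 units in Hdac2-null, 356, 4.75 and 6.41 units in Hopx-null and 6.11, 4.85 and 110 units in wild-type ventricles. The log2 signals of the 2 probe sets had a Pearson r of 0.997 over the 12 arrays. Both are of a kind whose probes can pair with related sequences, which the beta globins are, so that shared cross-hybridisation was not tested. The third probe set stayed under the floor on all arrays, and its 2 highest values, 28.3 and 8.07 units, were on Hdac2-null replicates 1 and 2. These 2 arrays also led on the other probe sets. The remaining arrays above the floor there were near background on the third: Hdac2-null replicate 3 (4.62 units), Hopx-null replicate 1 (4.79) and wild-type replicate 3 (4.61).

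**Figure D1:**
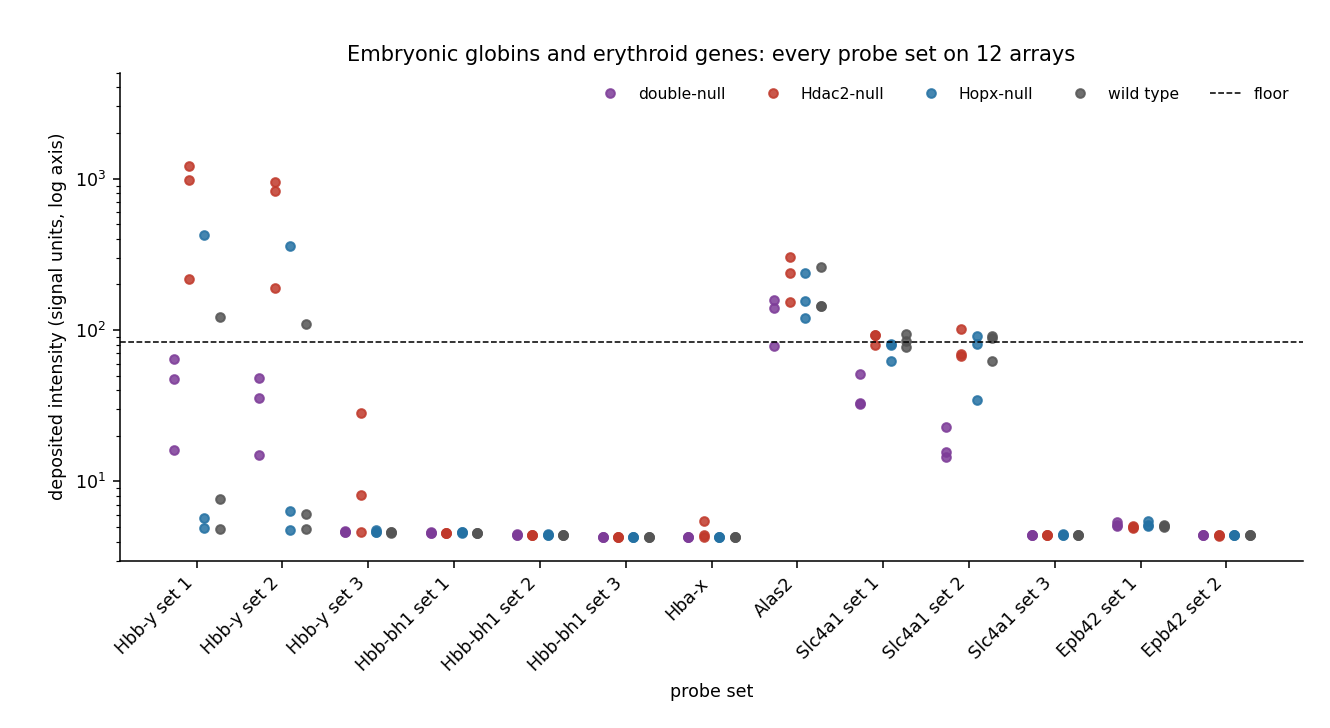
Deposited intensity (log axis) of each of the 13 probe sets on 12 arrays, 1 point per array, coloured by genotype, with the floor of 82.9 units as a dashed line. The first Hbb-y probe set spans 4.84 to 1209 units, while Hbb-bh1, Hba-x and Epb42 lie near 4 to 5 units on all arrays.

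Against wild type, Hbb-y was 2.76 log2 units higher in Hdac2-null ventricles after the floor (SE 0.68, 6.76-fold), and the adjusted p was 0.889. Without a floor the same difference was 5.27 (SE 1.75, adjusted p = 0.899), and without Hdac2-null replicate 3 it was 3.53 with the floor (SE 0.58, adjusted p = 0.297). With sex as a term, from Xist, it was 3.02 (SE 0.65, adjusted p = 0.852). Of the 3 genes tested, 0 were called in this comparison and 1, Hbb-y, had an unadjusted p under 0.05, where 2 of all 9661 genes were called (0.0207%) and 5.11% had such a p. Without a floor 4 of 12433 genes were called (0.0322%), none of them among the 7. Over all genes, 3.97% were wholly higher and 5.92% wholly lower in Hdac2-null than in wild-type arrays. These differences describe genes picked with their values in view and carry no weight as tests.

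In Hopx-null ventricles Hbb-y was 0.60 log2 units above wild type (SE 0.68, adjusted p = 1). That sign came from Hopx-null replicate 1, the array with 427 units: without it the difference was -0.19. None of the 3 genes was called by limma here or had an unadjusted p under 0.05, against 1 call over all genes (0.0104%) and 2 without a floor (0.0161%). The arrays of the 2 groups overlapped for all 3 genes, where 1.97% of genes were wholly higher and 2.58% wholly lower in Hopx-null arrays.

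Double-null ventricles did not show the high Hbb-y of the Hdac2-null group. All 3 double-null arrays were under the floor and all 3 Hdac2-null arrays above it, so that the log2 difference of -2.95 (SE 0.68, adjusted p = 0.366) is measured from the floor and not from the double-null signals themselves. It was -4.12 without a floor (SE 1.75, adjusted p = 0.469). With the floor it was -3.72 without Hdac2-null replicate 3 (SE 0.58, adjusted p = 0.259). For this comparison 0 of 3 genes were called and 2, Hbb-y and Alas2, had an unadjusted p under 0.05, with 1 call over all genes (0.0104%), 11.3% of all genes at such a p and 13% of genes wholly lower, and 13.2% wholly higher, in double-null arrays. Without Hdac2-null replicate 3 the unadjusted p of Alas2 was 0.0722. When arrays were weighted by their fit to the group means, Hbb-y was called at -3.36 (SE 0.42, adjusted p = 0.00933), together with 957 of all 9661 genes (9.91%), and double-null replicate 2 then had a weight of 7.98.

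Against wild type, double-null Hbb-y was -0.19 log2 units with the floor (SE 0.68, adjusted p = 0.959) and 1.15 without it (SE 1.75, adjusted p = 0.871), so its direction depended on signals under the floor, and with the floor it was 0 without wild-type replicate 3. It differed from Hopx-null by -0.79 (SE 0.68, adjusted p = 0.772), and by 0.69 without the floor. The interaction of the 2 losses, which asks whether double-null differs from the sum of the single losses on the log2 scale, was -3.55 for Hbb-y (SE 0.96, unadjusted p = 0.00366, adjusted p = 0.944), and limma called none of the 9661 genes there (0%), with 398 (4.12%) at an unadjusted p under 0.05. Without Hdac2-null replicate 3 the Hbb-y interaction was -4.32 with the floor (SE 0.78, adjusted p = 0.982). Without a floor, on all 12 arrays, it was -4.58 (SE 2.48, unadjusted p = 0.0944, adjusted p = 0.995). The small unadjusted p therefore depended on the floor.

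**Figure D2:**
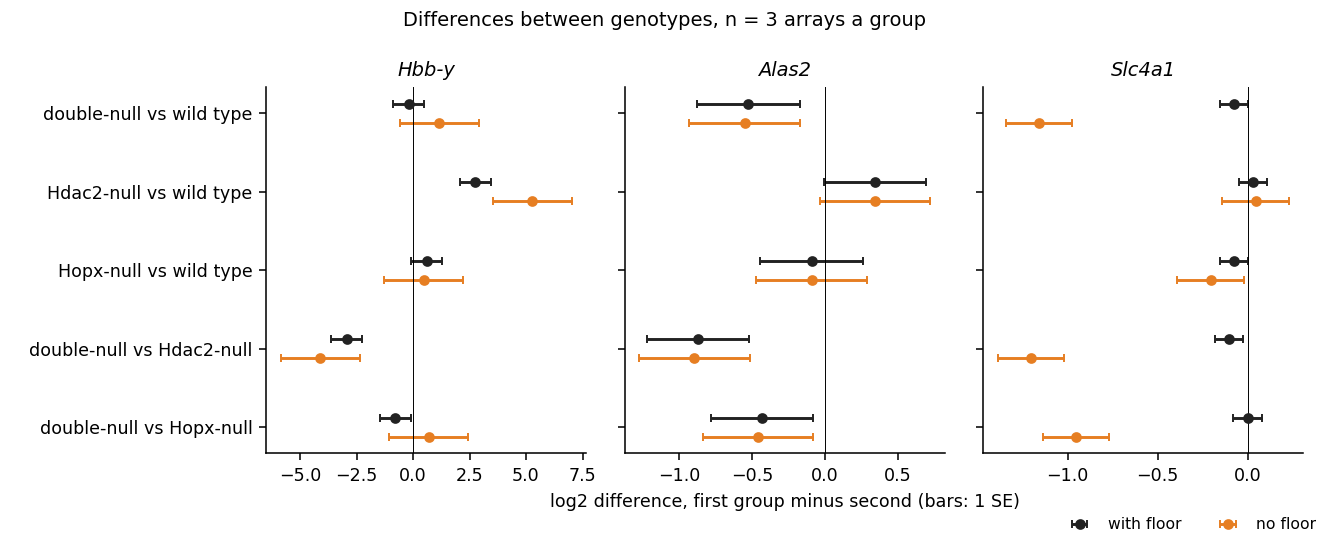
Log2 differences between genotypes for the 3 genes tested, first group minus second, with bars of 1 SE from the limma fit over 12 arrays, with the floor (black) and without it (orange). Hbb-y is at 2.76 and 5.27 for Hdac2-null against wild type, and Slc4a1 is near 0 with the floor but at -1.16 without it for double-null against wild type.

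The other embryonic globins gave no signal above background. The 3 probe sets of Hbb-bh1, which like Hbb-y lies on chromosome 7, read 4.26 to 4.63 units over all 12 arrays. Hba-x read 4.26 to 5.47 units, and its highest value was on Hdac2-null replicate 3, the array with Alb and Afp, followed by 4.42 units on Hdac2-null replicate 1. Both genes were under the 40th percentile of mean signal and were not tested, and at these signals a difference between genotypes was not detectable.

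Alas2, the haem synthesis gene, was above the floor on 11 arrays and varied 3.86-fold over the 12. It read 157, 139 and 78.5 units in double-null, 303, 154 and 236 units in Hdac2-null, 237, 120 and 156 units in Hopx-null and 144, 144 and 259 units in wild-type ventricles. Every pair of groups overlapped, and wild-type replicate 3, the wild-type array with the most Hbb-y, was also the wild-type array with the most Alas2. Group means were 125 ± 41.3, 231 ± 75.0, 171 ± 59.9 and 182 ± 66.2 units (SD, n = 3 each), in the order double-null, Hopx-null, wild type, Hdac2-null from low to high, and neighbours in that order did not differ beyond their spread.

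The log2 difference of Alas2 from wild type was -0.52 in double-null (SE 0.35, adjusted p = 0.748), 0.34 in Hdac2-null (SE 0.35, adjusted p = 0.930) and -0.09 in Hopx-null ventricles (SE 0.35, adjusted p = 1). For double-null against wild type limma called 0 of 3 genes and none reached an unadjusted p under 0.05, where 3 of all genes were called (0.0311%). Without Hdac2-null replicate 3 the Hdac2-null difference was 0.30 (SE 0.41, adjusted p = 0.945). Double-null against Hdac2-null was -0.87 (SE 0.35, adjusted p = 0.402) and -0.82 without that array (SE 0.41, adjusted p = 0.501), called only with array weights (-0.93, SE 0.23, adjusted p = 0.0311). Double-null against Hopx-null was -0.43 (SE 0.35, adjusted p = 0.760), with none of the 3 genes at an unadjusted p under 0.05 and 2 calls over all genes (0.0207%).

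Slc4a1, the membrane anion exchanger, was dimmest in double-null ventricles on both probe sets that gave signal, but close to the floor or under it. The brighter one read 32.7, 33.1 and 51.2 units in double-null, 92.6, 79.3 and 92.2 units in Hdac2-null, 79.9, 62.8 and 80.4 units in Hopx-null and 94.0, 77.1 and 85.2 units in wild-type ventricles. The double-null arrays lay below all 9 others, which overlapped among themselves, and 4 arrays passed the floor. The second probe set read 22.9, 14.4 and 15.5 units in double-null, 67.4, 69.7 and 101 units in Hdac2-null, 90.6, 34.4 and 81.3 units in Hopx-null and 91.9, 62.4 and 88.4 units in wild-type ventricles. Here too all 3 double-null arrays were lowest, while the third probe set read about 4.4 units everywhere.

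With the floor that difference largely vanished from the fit, by construction: double-null Slc4a1 was -0.07 log2 units from wild type (SE 0.08, adjusted p = 0.825). Without it, the brighter probe set was lower in double-null ventricles by a log2 difference of -1.16 against wild type (SE 0.18, adjusted p = 0.262), -1.20 against Hdac2-null (SE 0.18, adjusted p = 0.215; -1.17 without Hdac2-null replicate 3, adjusted p = 0.363) and -0.95 against Hopx-null (SE 0.18, adjusted p = 0.512). Beside these counts of groups that do not overlap, 8.95% of all genes were wholly lower (6.42% wholly higher) in double-null than in wild-type arrays, and 8.55% wholly lower (6.25% wholly higher) than in Hopx-null arrays. Fitted without a floor, 12433 genes gave 3, 1 and 1 calls in these 3 comparisons (0.0241%, 0.00804% and 0.00804%), and Slc4a1 was not one of them. The second probe set differed by -2.21 (adjusted p = 0.440), -2.18 (adjusted p = 0.123) and -1.88 (adjusted p = 0.798) in the same 3 comparisons, and by -1.99 from Hdac2-null without replicate 3 (adjusted p = 0.179).

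Epb42, which links the anion exchanger to the skeleton, read 4.39 to 5.47 units on its 2 probe sets over all arrays. It passed the percentile filter but was at the floor on every array, so it had no variance to test.

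Adult globin transcripts, measured by probe sets that match several adult genes at once, were bright on all arrays and varied far less than Hbb-y. The alpha probe set read 26306, 24005 and 22670 units in double-null, 31340, 27433 and 30236 units in Hdac2-null, 26468, 24023 and 26474 units in Hopx-null and 26398, 27806 and 31098 units in wild-type ventricles. As for Slc4a1, all 3 double-null arrays lay below every wild-type and every Hdac2-null array on this alpha probe set, but here they overlapped with Hopx-null ones. The gap to wild type was narrow, 26306 against 26398 units. Over all genes, 8.95% were wholly lower in double-null than in wild-type arrays, and 13% than in Hdac2-null arrays. The part of adult globin RNA in the Slc4a1 difference was not tested. The beta probe set ranged from 27645 to 34333 units, 1.24-fold, with every pair of groups overlapping except Hdac2-null and Hopx-null, near the top of the scale, where differences can be compressed. The remaining 2 probe sets of several adult globin genes ranged from 5027 to 7636 units, 1.52-fold, and from 19659 to 26563 units. On the brighter of these 2, double-null arrays (21658 to 22661 units) lay below wild-type ones (22834 to 26563 units) and overlapped with the other groups. Hdac2-null replicate 2 shows how far Hbb-y and adult alpha globin parted: it held the second highest Hbb-y with a middling alpha signal.

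Over the 12 arrays, log2 Alas2 and log2 adult alpha globin had a Pearson r of 0.88 (Spearman rho 0.80), 0.77 without the 2 arrays farthest from the Alas2 median and 0.90 within groups. For Hbb-y and adult alpha globin r was 0.49 (rho 0.42), 0.34 without the 2 farthest arrays and 0.41 within groups. With the adult beta probe set r was higher, 0.60 for Hbb-y (rho 0.56) and 0.62 for its second probe set (rho 0.67). Alas2 and adult beta globin had 0.80 (rho 0.86). For Hbb-y and Alas2 r was 0.57 (rho 0.62), 0.54 without the 2 farthest arrays and 0.54 within groups. Hbb-y was under the floor on 7 of the 12 arrays, and its r values include those signals. Whether those signals lowered its r below that of Alas2 was not tested. The 2 measurable Slc4a1 probe sets had an r of 0.91 over all arrays and 0.36 within groups, and Slc4a1 and Alas2 had 0.49 and -0.12. These points share their arrays and normalisation, and the values are a description of 12 arrays without a test.

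**Figure D3:**
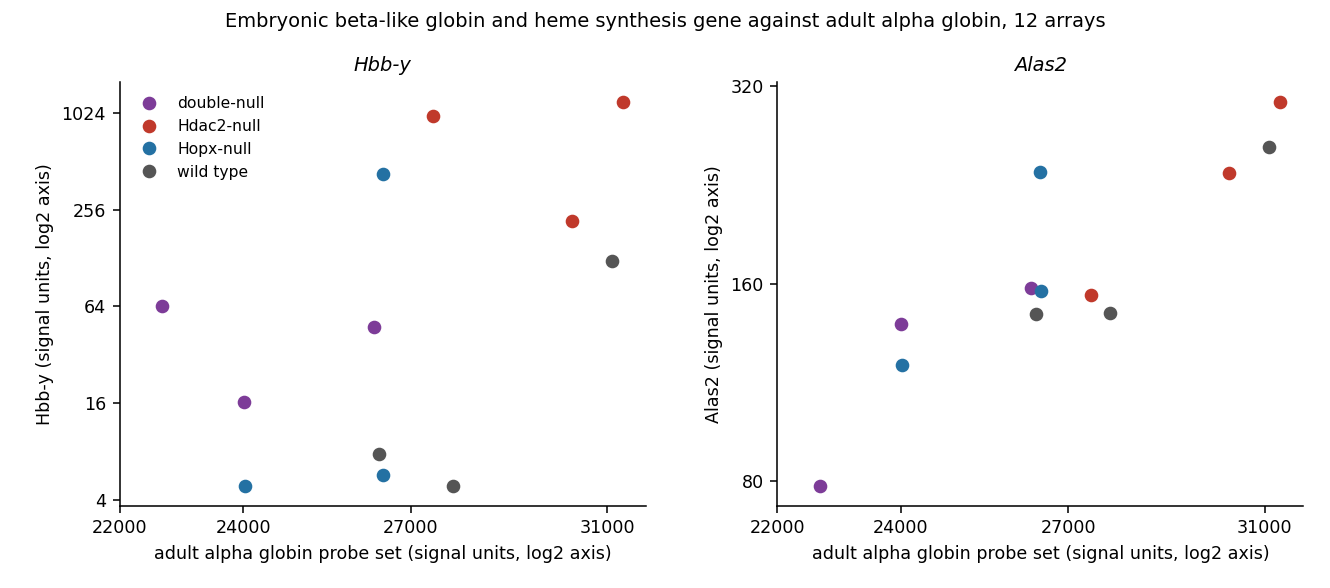
Hbb-y (left) and Alas2 (right) against the adult alpha globin probe set, 1 point per array, both axes on a log2 scale in deposited signal units. Alas2 follows the alpha globin signal over 22670 to 31340 units (r = 0.88), while Hopx-null replicates 1 and 3, with 26468 and 26474 units of alpha globin, hold 427 and 5.69 units of Hbb-y.

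**Figure D4:**
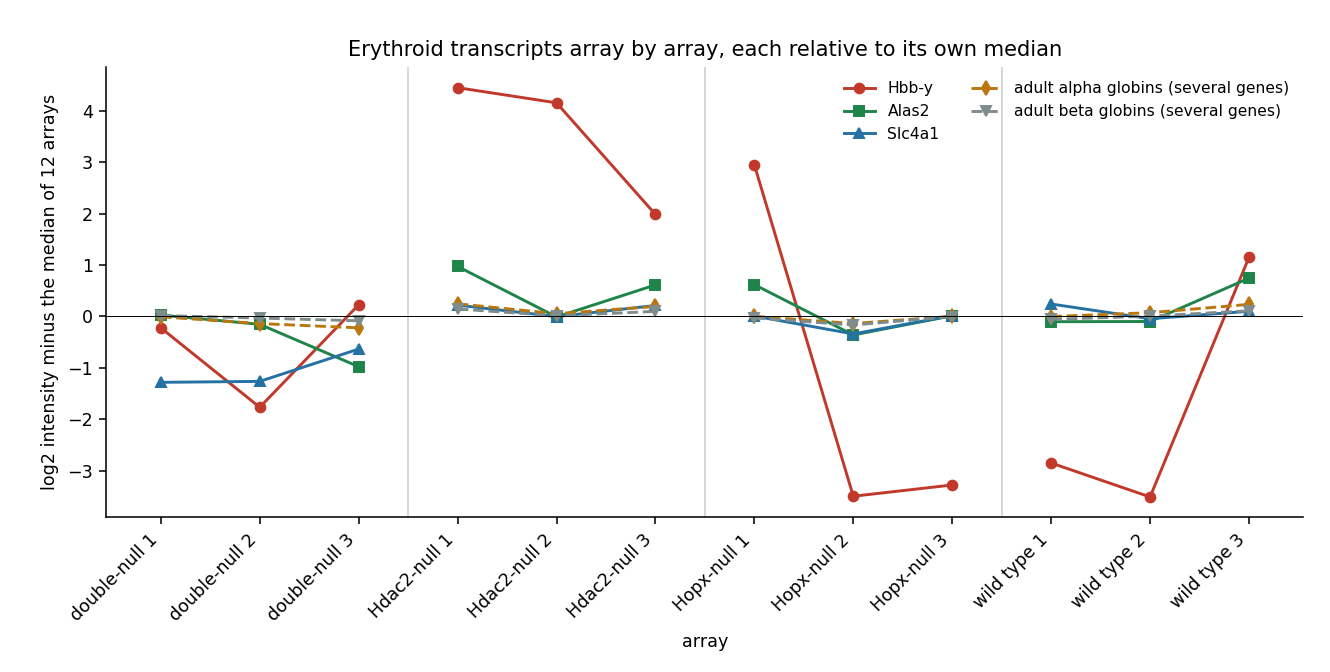
Log2 intensity without a floor of Hbb-y, Alas2, Slc4a1 and the adult alpha and beta globin probe sets on each array, minus that probe set's median over 12 arrays. Lines join the arrays of 1 genotype and imply no order. Hbb-y runs from far below to far above its median, Slc4a1 dips on the 3 double-null arrays, and the adult globins stay within a much narrower band.

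A log2 difference within each array, Hbb-y minus Alas2 after the floor, sets the embryonic globin against an erythroid gene of the same RNA. Probe sets differ in brightness, so only its differences between arrays can be read. It averaged -0.56 ± 0.49 in double-null, 1.52 ± 1.46 in Hdac2-null, -0.20 ± 0.93 in Hopx-null and -0.89 ± 0.16 in wild-type ventricles (SD, n = 3 each). Hdac2-null arrays spanned -0.11 to 2.68, all above the 3 wild-type arrays, and averaged 2.34 without replicate 3. On 7 of the 12 arrays Hbb-y was at the floor, so the value there is the floor minus Alas2. Without a floor the averages were -1.70 ± 1.41 in double-null, 1.52 ± 1.46 in Hdac2-null, -2.85 ± 3.20 in Hopx-null and -3.40 ± 2.04 in wild-type ventricles. The wild-type arrays were then at -4.23, -4.90 and -1.08. Double-null replicate 3 was above Hdac2-null replicate 3 with the floor (0 and -0.11) and below it without one (-0.28 and -0.11). The same difference between the means of all 3 embryonic globins and of Alas2, Slc4a1 and Epb42 was -0.19 ± 0.16, 0.47 ± 0.51, -0.07 ± 0.31 and -0.32 ± 0.05 in the same order of groups, and the Hdac2-null mean was 0.75 without replicate 3. Hbb-bh1, Hba-x and Epb42 are constants at the floor in that index and only shrink it.

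Other genes of the red cell programme were taken from lists of adult globins, haem synthesis and iron uptake, membrane and skeleton, red cell enzymes, and transcription and signalling, leaving out the 7 genes. Of 37 such genes tested, limma called none in any of the 6 comparisons. Against wild type, 3 of the 37 had an unadjusted p under 0.05 in double-null (8.11%, beside 7.27% of all genes), 0 in Hdac2-null (beside 5.11%) and 1 in Hopx-null ventricles (2.70% beside 2.59%). For double-null there were 4 against Hdac2-null (10.8% beside 11.3%) and 3 against Hopx-null (8.11% beside 8.10%), and for the interaction 1 (2.70% beside 4.12%). With all 12 arrays these shares were therefore near or below those of all genes. In double-null ventricles 13 were above and 24 below wild type, with a median log2 difference of -0.10 where all 9661 genes had -0.01. In Hdac2-null ventricles the counts were 12 and 25 (median -0.05 beside -0.01), or 13 and 24 without replicate 3. Without that array 4 of the 37 had an unadjusted p under 0.05 and none was called. That share, 10.8%, was above the 5.97% of all genes. In Hopx-null ventricles 15 were above and 22 below wild type (median -0.02 beside -0.00). Over all genes, 4325 were above and 5260 below wild type in double-null, 4266 and 5326 in Hdac2-null and 4667 and 4937 in Hopx-null ventricles.

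Of the adult globins, the 2 single-gene probe sets tested were Hba-a2, which averaged 3921 ± 130, 4523 ± 263, 4209 ± 292 and 3915 ± 633 units in double-null, Hdac2-null, Hopx-null and wild-type ventricles, and Hbb-b2, which averaged 12869 ± 239, 12182 ± 434, 12367 ± 656 and 12735 ± 516 units. Hba-a2 was 0.22 log2 units higher in Hdac2-null than in wild-type ventricles, with overlapping arrays (SE 0.10, adjusted p = 0.927; 0.24 without Hdac2-null replicate 3), and Hbb-b2 differed from wild type by between -0.06 and 0.02 in the 3 null groups.

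Among 13 haem and iron genes the smallest p-values against wild type belonged to Glrx5, a mitochondrial iron-sulfur protein, Slc25a39, a mitochondrial carrier, Fech, which inserts iron into the porphyrin, and Alad, the enzyme after Alas2. Glrx5 was 4502 ± 169 units in double-null and 5012 ± 324 in wild-type ventricles (log2 -0.15, SE 0.07, adjusted p = 0.673). Its 3 double-null arrays lay below the wild-type ones, as did those of 8.95% of all genes. Slc25a39 was -0.07 (SE 0.03, adjusted p = 0.673) and Alad -0.46 (SE 0.27, adjusted p = 0.701) in double-null against wild type. Fech was -0.11 in Hopx-null against wild type (SE 0.05, adjusted p = 1).

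Of 5 membrane and skeleton genes tested, Ank1, which ties spectrin to the membrane, was -0.23 in Hdac2-null against wild type (SE 0.11, adjusted p = 0.927), and the spectrin gene Sptb was -0.54 (SE 0.27, adjusted p = 0.927). Without Hdac2-null replicate 3 these were -0.34 and -0.83 (adjusted p = 0.771 each). Gypc, a glycophorin, and Tmod1, which caps actin filaments, differed from wild type by between -0.10 and 0.05 in all 3 null groups. Heart muscle makes some of these proteins too, so their level is not one of red cells alone.

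Among 8 red cell enzymes, Mgst3, a membrane glutathione transferase, averaged 1497 ± 129 units in double-null and 1907 ± 264 in wild-type ventricles. No double-null array reached a wild-type one, as for 8.95% of all genes, and the log2 difference was -0.34 (SE 0.11, adjusted p = 0.639). Hagh, Prdx2 and Cat, which handle glyoxal products and peroxides, differed from wild type by between -0.18 and 0.17 in the 3 null groups, with no call.

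Of 9 transcription and signalling genes tested, Sox6, a repressor of Hbb-y in red cells of the fetal liver, read 111, 142 and 103 units in double-null, 123, 143 and 106 in Hdac2-null, 162, 123 and 77.8 in Hopx-null and 309, 123 and 123 in wild-type ventricles. Only wild-type replicate 1 stood above the rest, and the log2 differences from wild type were -0.51, -0.44 and -0.50 (SE 0.34 each). Mxi1 was -0.15 in double-null (SE 0.07, adjusted p = 0.673) and -0.18 in Hopx-null ventricles (SE 0.07, adjusted p = 1) against wild type. Klf3 was 0.11 and Tal1 0.18 in double-null against wild type, with no call. The erythroid regulators Gata1, Klf1, Nfe2 and Gfi1b were among the 9 genes of that list never above the floor.

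By likeness of pattern, the genes nearest to Hbb-y among 9658 others were Sdk1, a cell adhesion gene (Pearson r = 0.90 over the 12 arrays, on floored log2 signals), Rps19, Rpl22 and Rpl8 (each 0.89), Pofut1 and Rpl7a (0.88), Lama5 (0.86), Tceal9 (0.85), Ppil6 (0.84) and Rpl19 (0.83). Of the 10, 5 encode ribosomal proteins, and their signals move little: Rps19 spanned 10966 to 15348 units. Without the 2 Hdac2-null arrays highest in Hbb-y, r for these 10 genes ran from 0.52 for Ppil6 and 0.65 for Lama5 to 0.90 for Rpl7a, with 0.74 for Sdk1. The 7 arrays with Hbb-y at the floor share 1 value and all stayed in, so these r rest on few arrays where Hbb-y varies. Nearest to the mean of Alas2, Slc4a1 and Epb42 were Tent5c (0.90), which spanned 1141 to 3214 units, Mkrn1 (0.87) and Bpgm (0.85), the red cell enzyme of bisphosphoglycerate. After them came Col18a1 (0.85), Taf1 and Ss18l1 (0.83), Nomo1 (0.80), Strada and Copz1 (0.79) and Nxn (0.78). After the floor Epb42 is constant and Slc4a1 spans only 6.37 to 6.55 log2 units, beside 6.37 to 8.24 for Alas2. That mean therefore follows mostly Alas2. These genes were ranked over all genes by r alone, and no test was made.

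Some markers of other cells moved with Hbb-y on some arrays. S100a8, of granulocytes, read 765, 873 and 1254 units in double-null, 1756, 2762 and 1077 units in Hdac2-null, 580, 890 and 243 units in Hopx-null and 660, 588 and 1044 units in wild-type ventricles. The 3 Hdac2-null arrays lay above all wild-type ones (log2 difference 1.23, SE 0.46, adjusted p = 0.898), as they did for its partner S100a9 (1.33, SE 0.46, adjusted p = 0.898). Without Hdac2-null replicate 3 these were 1.57 and 1.61 (adjusted p = 0.771 each). With all arrays kept, the lowest Hdac2-null array was only just higher than the highest wild-type one (S100a8 1077 and 1044 units, S100a9 1173 and 1116). Over all genes, 3.97% were wholly higher in Hdac2-null than in wild-type arrays. Most of the leukocyte list went the other way. Of 8 leukocyte markers tested, these 2 included, 3 were higher and 5 lower in Hdac2-null than in wild-type ventricles. Their median log2 difference was -0.25. Of 17 leukocyte markers 8 passed the floor on any array, the summed signal of all 17 was 14171 to 16746 units in double-null, 16580 to 17368 in Hdac2-null, 16227 to 17383 in Hopx-null and 15642 to 20515 in wild-type ventricles, and the granule genes Mpo, Elane and Ngp were never above the floor. The brightest of that list were the macrophage genes C1qb, Csf1r and Mrc1, and Csf1r read 3591 to 4085 units in double-null, 3730 to 4141 in Hdac2-null, 3898 to 4281 in Hopx-null and 4352 to 4744 in wild-type ventricles.

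Ttr, a hepatocyte gene, read 47.7, 17.1 and 43.1 units in double-null, 43.3, 110 and 188 units in Hdac2-null, 105, 10.5 and 22.6 units in Hopx-null and 29.8, 12.3 and 27.6 units in wild-type ventricles. Hopx-null replicate 1, the Hopx-null array with high Hbb-y, was also the one with high Ttr, while Hdac2-null replicate 1 had the most Hbb-y of all with 43.3 units of Ttr, 4.3 of Alb and 4.7 of Afp. The summed signal of 10 hepatocyte markers was 76.8 to 107 units in double-null, 101 to 641 in Hdac2-null, 75.6 to 165 in Hopx-null and 71.5 to 89.6 in wild-type ventricles. Of 8 platelet markers only Pf4 passed the floor, and their sum was 1284 to 1513, 993 to 1404, 1472 to 1796 and 1239 to 2001 units in the same order. The part of these cells in the Hbb-y signal was not tested.

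**Figure D5:**
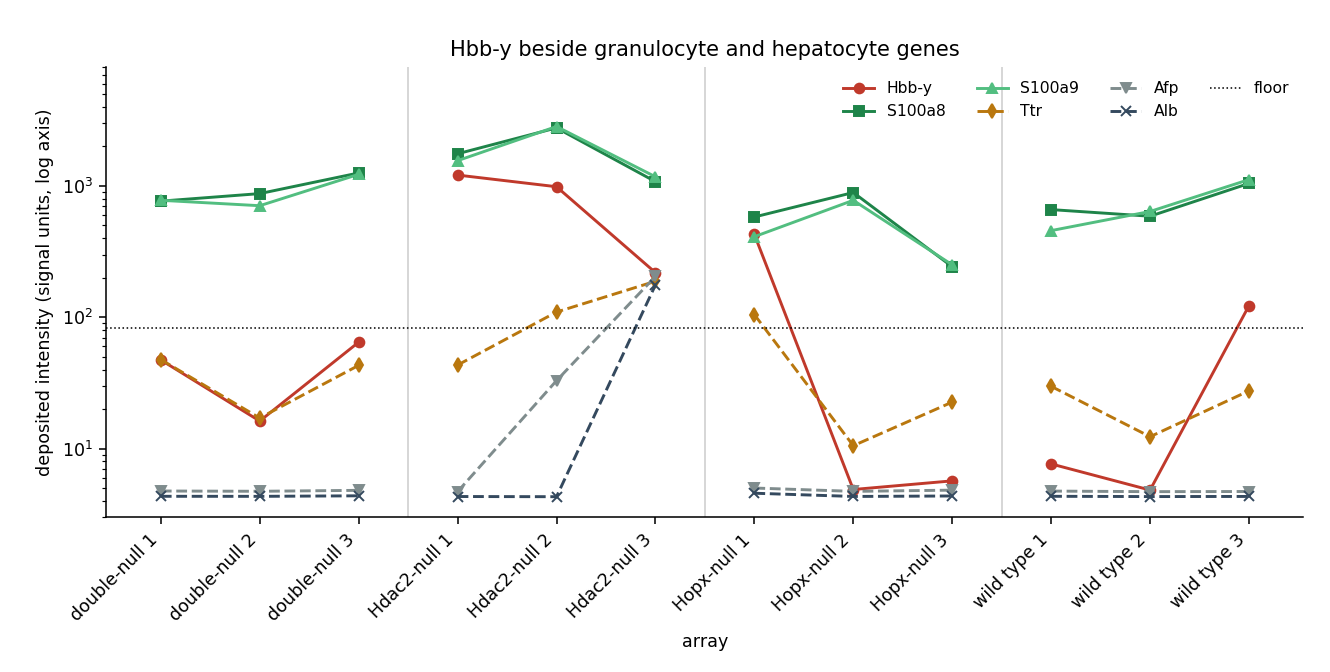
Deposited intensity (log axis) of Hbb-y beside the granulocyte genes S100a8 and S100a9 and the hepatocyte genes Ttr, Afp and Alb on each of the 12 arrays, with the floor as a dotted line. Lines join arrays of 1 genotype and imply no order. Alb and Afp pass the floor only on Hdac2-null replicate 3, at 176 and 205 units, where Hbb-y, at 219 units, is the lowest of its group.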

How the data were processed

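Ventricular RNA was measured on 12 single-colour arrays. Per the labels' protocols, cRNA was labelled with biotin. The table as deposited by the authors holds the intensity of 45101 probe sets, linear and positive, for each array. Per the submitters' processing notes the tool was MAS5, with no version, whereas the pile of values near 4.5 has the shape of a model-based summary, so the method behind the table is not settled. The values were used as deposited.

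A floor was set at 0.1 of the 2% trimmed mean signal (averaged over arrays), and floored signals were turned to log2, which understates differences of dim genes. Platform annotation gave 34945 probe sets 1 gene, 932 several and 9160 none, beside 64 controls, and 34741 symbols were updated through gene identifiers. Each of 18193 genes took its brightest probe set. Of these, 12433 reached the 40th percentile (4.76 units), and 2772 of them, at the floor on all arrays, were left out. limma 3.58.1 in R 4.3.3 fitted 4 genotype means with an intensity trend (8 residual degrees of freedom), and p-values were adjusted by Benjamini-Hochberg over 9661 genes within each of 6 comparisons, with calls at an adjusted p under 0.05. Correlations between the 7 genes used log2 signals without a floor. Precision is limited by 3 arrays a group, and counts behind intensities do not exist.

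The 7 genes and the lists were chosen with earlier results of these data known. The genes named from each erythroid list are those called, and beyond them up to 4 with the smallest p against wild type, and the 10 most alike in pattern by Pearson r. Markers of other cells are up to 3 of the brightest of a list, and hepatocyte genes above the floor. S100a8, S100a9, the granule genes, the regulators under the floor and the haemoglobin clearance genes were picked after seeing their values. Deviations of same-numbered arrays correlated between Hopx-null and wild type (0.15 to 0.42) and between Hdac2-null and Hopx-null (0.12 to 0.21). Replicate 1 of every group had high Xist. The labels give no pairing, and the fit has no replicate block. Simulated data served to test the fitting step. Alternatives changed the floor, the normalisation, the probe sets, the filter, the trend, array weights, a sex term, a replicate block and the arrays included. Figures were drawn with matplotlib 3.10.9.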

Additional observations from a re-analysis of the deposited data

How the results depend on the processing

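No alternative tried turned a called result round, and Hbb-y stayed higher in Hdac2-null than in wild-type ventricles under all of them. Apart from 1 combined setting, given next, the difference was between 1.95 and 5.27 log2 units with adjusted p of 0.297 or more. With both the floor and Hdac2-null replicate 3 left out it was 6.04 (SE 1.98, adjusted p = 0.763). Genes called without a floor numbered 4 for Hdac2-null and 2 for Hopx-null against wild type and 1 for double-null against Hopx-null. With every probe set fitted they were 6 for double-null and 2 for Hopx-null against wild type and 2 for double-null against Hdac2-null. Array weights, with 1 probe set a gene, gave 957 calls in the last comparison in place of 1. Double-null against Hopx-null gave 1 call, in place of 2, with the floor doubled to 2 times its value and with only the groups compared in the fit. Leaving out 1 array at a time gave 2 to 4 calls for Hdac2-null and 3 to 8 for double-null against wild type, both highest without wild-type replicate 3, 1 for Hopx-null against wild type and for double-null against Hdac2-null, 1 to 3 for double-null against Hopx-null (1 without wild-type replicate 1 or 2, Hdac2-null replicate 2, Hopx-null replicate 2 or 3, or double-null replicate 2 or 3), and 0 to 1 for the interaction (1 without wild-type replicate 3). The filter on the percentile changed nothing, since all genes it removed were at the floor. The cause of these shifts was not tested beyond what each setting does to the genes or arrays included.

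The difference between embryonic globins and the other erythroid genes, 0.79 for Hdac2-null against wild type (0.58 to 1.07 with 1 array left out), was 1.68 without a floor and 2.41 as Hbb-y minus Alas2, a setting chosen after seeing the data. For Hopx-null it was 0.25 (0.08 to 0.37), and 0.69 as Hbb-y minus Alas2, and for double-null 0.14 (0.04 to 0.20), 0.94 without a floor and -0.03 without Alas2 among the erythroid genes. Deviations of same-numbered arrays from their group means correlated between -0.25 and 0.42. They were over 0.1 in all 3 pairs of Hopx-null with wild type. The same held for Hdac2-null with Hopx-null (0.21, 0.17 and 0.12), and not for all pairs of any other groups. With the replicate number as a block the calls for double-null against Hopx-null were 1, the other counts, Hopx-null against wild type included, did not change, and the adjusted p of Hbb-y was 0.689 for Hdac2-null against wild type. Hbb-bh1, Hba-x and Epb42 lie under the floor and Slc4a1 close to it, so signal limits what can be said of them.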

Other observations

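Genes that clear haemoglobin and store its iron were measured too. Of 7 with a probe set, 4 were tested and none was called in any of the 6 comparisons by limma, with the lowest adjusted p at 0.617. Hmox1, which breaks haem down, averaged 290 ± 13.4 units in double-null, 319 ± 68.9 in Hdac2-null, 256 ± 42.7 in Hopx-null and 298 ± 37.2 in wild-type ventricles (SD, n = 3 each). Slc40a1, the iron exporter, averaged 877 ± 91.5, 1003 ± 158, 842 ± 143 and 961 ± 103 units in the same order. The plasma scavengers Hp and Hpx were at about 4.3 units on all arrays. These genes were named after their values were seen.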
